A study of Mus musculus with 84 samples.

Results

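The clustered protocadherins are neighbouring genes for cell-surface adhesion proteins, and 58 of the 55401 gene IDs counted belong to them. They were chosen by symbol alone, as every gene whose name starts with Pcdha, Pcdhb or Pcdhg, which gives 14 members in the alpha cluster, 22 in the beta cluster and 22 in the gamma cluster. RNA had been sequenced from NeuN-positive nuclei, that is nuclei sorted for a neuronal protein, of the frontal cortex of 129S6/SvEvTac mice of 12 weeks. Vehicle-injected mice were compared with mice taken 24 h, 48 h or 7 days after 1 injection of DOI (2,5-dimethoxy-4-iodoamphetamine), a psychedelic that activates the serotonin 2A receptor. Each group had RNA from 4 mice, which are the replicates, and the counts of both libraries made per animal were added together. The labels name no genetic change in any group. In RNA pooled from many nuclei, fewer cells using a gene and less RNA per cell cannot be told apart.

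Clustered protocadherins bind their own kind across cell membranes, and in neurons they let the branches of a cell recognise each other. In the alpha and gamma clusters each gene has its own promoter and its own variable first exon, which encodes the outside of the protein and is spliced to constant exons shared by the whole cluster, while each beta gene is complete in itself. A single neuron switches on a small and largely random choice of these promoters through loops made by the DNA-binding protein CTCF and the cohesin ring, and DNA methylation keeps the others silent. The C types (Pcdhac1, Pcdhac2, Pcdhgc3, Pcdhgc4 and Pcdhgc5), at the ends of the alpha and gamma clusters, follow other rules and are used more uniformly among neurons of a kind.

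All members lie on the plus strand of chromosome 18 (GRCm38): the alpha cluster from 36930184 to 37187661, the beta cluster from 37264938 to 37524479 and the gamma cluster from 37661793 to 37841873. A read that falls on the exons of more than 1 gene is left out by the counting program unless told otherwise, so the constant exons count for no alpha or gamma gene and a member's value comes from its unshared exon bases. Of the 58 members, 38 share exon bases with another member and 28 with some other annotated gene. The unshared length was 404 to 3028 bases in the alpha cluster, 1107 to 8695 in the beta cluster and 0 to 4614 in the gamma cluster. Pcdhga10 has 0 unshared bases and was at 0 in all mice by construction. Exons of 13 members are also covered by an annotated antisense gene, and strand was not used in the counting. Nuclear RNA includes unspliced transcripts, so a transcript started at an upstream promoter can add reads over the variable exons downstream of it, which these counts cannot separate. Reads that fit several similar members equally well are left out as well. Among the symbols, Pcdha11 names 2 features: ENSMUSG00000007440, which starts where RefSeq has Pcdha10, and ENSMUSG00000102206, which matches the Pcdha11 of RefSeq.

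Vehicle mice had total counts between 9151680 and 11517452. Those at 24 h had between 6441396 and 8090559, those at 48 h between 5834248 and 7344355 and the 7 days mice between 6972577 and 12354785, so the vehicle totals did not overlap those at 24 h and 48 h. Members took 0.041% to 0.062% of the counts, between 2402 and 6172 reads per mouse. The floor of 3 counts lay between 0.254 and 0.502 CPM (counts as a proportion of the TMM-scaled total, on the usual counts-per-megaread scale), and covers counting error only. An 18S ribosomal RNA pseudogene feature took 0.00694% to 0.0101% in vehicle mice, against 0.328% to 1.57% at 24 h and 0.523% to 1.66% at 48 h, and at 7 days it took 0.00834%, 0.633%, 0.00607% and 0.474% in mice 1 to 4. The mitochondrial share was 0.0171% to 0.0701% in vehicle, 0.0621% to 0.101% at 24 h and 0.108% to 0.268% at 48 h, and at 7 days it was 0.0413%, 0.130%, 0.0210% and 0.114% in mice 1 to 4. On the first principal component of all genes, 7 days mice 1 and 3 lay among the vehicle mice (scores of -87.5 and -82.9 against -94.6 to -69.0), and mice 2 and 4 lay among the 24 h and 48 h mice (52.1 and 64.8 against 22.0 to 66.2). Genes detected were fewest in 24 h mouse 1 (22989) and 48 h mouse 1 (21266), beside 23278 to 25223 in the other mice. The file header carried another mouse number than the label for mouse 1 of the 24 h group and for mouse 2 of both later groups (3 mice), and the label was followed. Neuronal markers (Rbfox3, which encodes NeuN, Snap25 and Syt1) summed to 4932 to 5340 CPM in vehicle, against 3426 to 5220 (24 h), 3182 to 5091 (48 h) and finally 3793 to 5205 (7 days). Of these, Snap25 fell (adjusted p = 0.0395 and 0.0257) while Rbfox3 rose (adjusted p = 0.0103 and 0.00775) at 24 h and 48 h. The 8 excitatory markers summed to 512 to 560 CPM in vehicle, against 1029 to 2463 at 24 h, 1515 to 2256 at 48 h, and finally 487 to 1427 at 7 days. Much of that difference is Camk2a, with a mean of 180 CPM in vehicle and 1405 at 24 h, and 3 of the 8 rose at each of 24 h and 48 h. At each of these times 0 fell, and 3 of the 8 estimates were negative. Of the 7 inhibitory markers 1 rose at each time (Slc32a1), 2 fell at 24 h (Gad1 and Gad2) and 1 fell at 48 h (Gad1). Their sums were 1386 to 2755, 1719 to 2472, 1768 to 2729 and 1417 to 2814 CPM, and for the 7 striatal markers 209 to 395, 131 to 258, 258 to 490 and 328 to 1561 CPM. Of the 6 striatal markers tested 2 fell at 24 h (Drd1 and Ppp1r1b) and 1 rose at 48 h (Rgs9), and at 7 days 0 passed while all 6 estimates were positive (median log2 fold change 1.61) and 5 had an unadjusted p below 0.05. Beside the counts of all marker lists here, 24.2% of all genes passed at 24 h, 30.1% at 48 h and 0% at 7 days. At an unadjusted p below 0.05 the shares of all genes were 38.4%, 42.9% and 16.8%. Non-neuronal markers were present too: in vehicle the 7 astrocyte markers summed to 627 to 695 CPM, the 8 oligodendrocyte markers to 135 to 343, the 6 microglia markers to 69.6 to 108 and the 4 endothelial markers to 0.755 to 3.87, against 712 to 1111, 141 to 230, 42.7 to 84.7 and 1.34 to 9.23 at 24 h, and 614 to 1056, 168 to 226, 46.0 to 74.2 and 0.290 to 3.72 at 48 h, and 442 to 717, 197 to 352, 51.8 to 123 and 1.12 to 4.83 at 7 days. Of the 7 oligodendrocyte markers tested 1 fell at 24 h (Mbp) and 2 at 48 h (Cnp and Olig1), and 0 astrocyte, microglia or endothelial markers passed (at an unadjusted p below 0.05, 1 astrocyte marker at each time and 2 microglia markers at 48 h). None of these markers was at 0 in every mouse. The part of the mitochondrial share and the cell type markers in the member results was not tested, and a fit with the 18S share is given beside the counts of members.

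Levels of different members can be set side by side only per length, as CPM per kb of unshared exon. In vehicle mice the highest was Pcdhac2, the alpha C type that serotonergic neurons need to space out their axons, at 18.5 ± 4.87 CPM per kb (SD, n = 4). Its 4 mice (14.0 to 24.3) did not overlap the next member, Pcdhb17, at 10.3 ± 1.46 (8.56 to 11.7). Pcdhb20 followed at 8.96 ± 1.53, Pcdhb3 at 7.58 ± 1.87, Pcdhgc5 at 7.26 ± 0.879 and Pcdhb7 at 6.48 ± 2.00, and the ranges of these neighbours overlapped. Pcdhgc4, the gamma C type that interneurons need to survive, was at 4.25 ± 0.426 CPM per kb, and Pcdhac1 was at 2.71 ± 0.800.

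Outside the C types the alpha members tested ran from 0.286 CPM per kb (Pcdha1) to 3.21 (Pcdha12) in vehicle. The 4 leading members by the mean over all mice were Pcdha12 at 3.21 ± 0.587, Pcdha7 at 2.17 ± 0.459, Pcdha5 at 1.51 ± 0.499 and Pcdha9 at 1.23 ± 0.644 CPM per kb in vehicle. The median over members in vehicle was 1.22 CPM per kb in the alpha cluster, 2.45 in the beta cluster and 1.01 in the gamma cluster. In the gamma cluster Pcdhga11 (3.67 ± 0.517) and Pcdhga12 (3.28 ± 0.716) led the A and B types. At the bottom of the members tested were Pcdhga1 (0.0828 ± 0.0542), Pcdhga9 (0.0874 ± 0.0406), Pcdhb13 (0.170 ± 0.0449), Pcdhgb1 (0.186 ± 0.123) and Pcdhgb8 (0.242 ± 0.293). The 5 highest members of a mouse held 39.0% to 42.9% of its summed member CPM in vehicle, and 33.4% to 42.3% at 24 h.

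**Figure D1:**
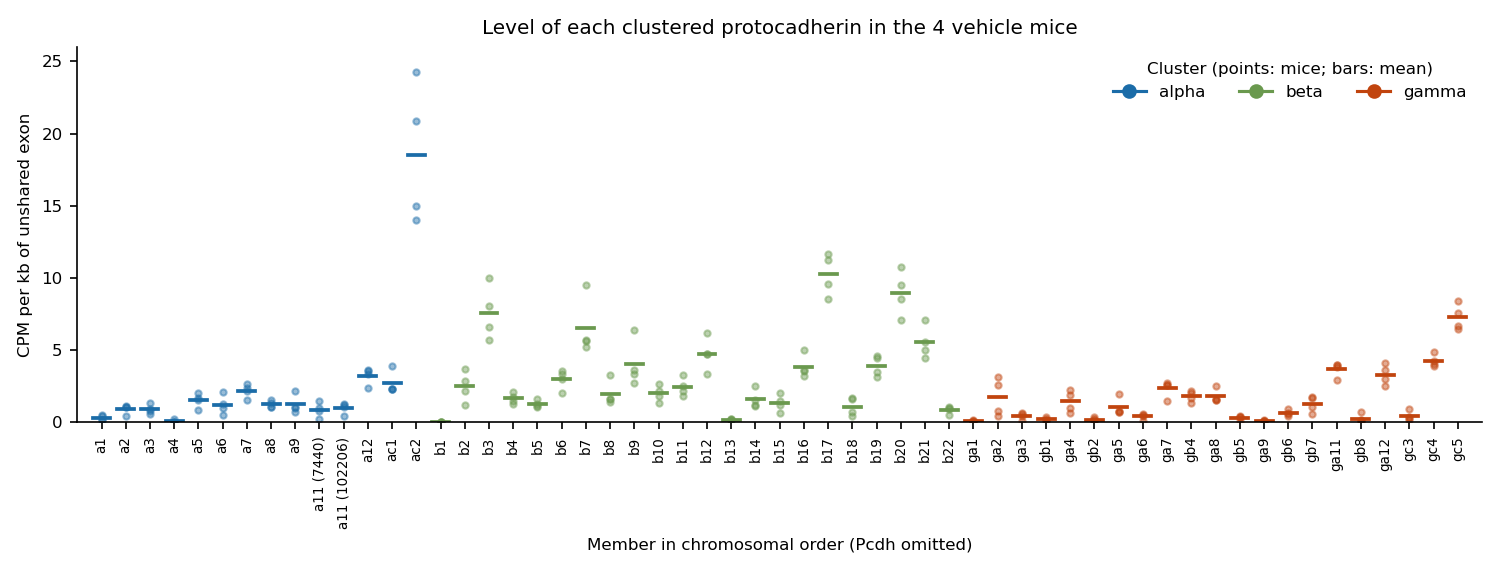
Level of 57 members in vehicle, in CPM per kb of unshared exon (linear axis), in chromosomal order and coloured by cluster; points are the 4 mice and bars their mean, and Pcdhga10, with 0 unshared bases, is left out. Pcdhac2 stands highest with mice from 14.0 to 24.3, and most alpha and gamma members other than the C types sit at the low end.

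The filter on low counts left 53 members to test: 13 alpha, 21 beta and 19 gamma. Left out were Pcdha4 (9 counts over all mice), Pcdhb1 (2 counts), Pcdhgb2 (75 counts), Pcdhgc3 (50 counts) and Pcdhga10. The filter asks for at least 1.26 CPM (on total counts) in any 4 of the 16 mice, so a gene low in vehicle could be tested only if DOI mice were higher. That was so for 5 members in which 0 vehicle mice reached the minimum (Pcdha1, Pcdhb13, Pcdhga1, Pcdhgb1 and Pcdhga9), and counts and medians over the members tested include them. Tests were edgeR's quasi-likelihood test in a single model of the 4 groups, and p was adjusted by Benjamini-Hochberg over all 17941 genes tested, and a member is said to have risen or fallen where the adjusted p was below 0.05.

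At 24 h after DOI, 10 members had changed, 7 higher and 3 lower. That is 18.9% of the 53 tested, beside 24.2% of all genes (13.8% higher and 10.4% lower). The gamma cluster held 7 of the 10 (6 of 19 tested rose and 1 fell), the beta cluster 2 (1 of 21 rose and 1 fell) and the alpha cluster 1 of 13, which fell. The median log2 fold change was -0.49 over the alpha members tested, -0.09 over beta, 0.54 over gamma and 0.03 over all genes. Of the 7 that rose, 3 are among the 5 let in by DOI mice alone. Pcdhgb8, which also rose, had 1 vehicle mouse at the minimum and could not have been tested without DOI mice. The count was 19 by limma voom (beside 40.3% of all genes), and it was 6 without vehicle mouse 1, vehicle mouse 2 or 24 h mouse 1 and 5 without 24 h mouse 4 (beside 13.9%, 14.1%, 17.4% and 13.9% of all genes). In 17 members the 24 h mice did not overlap the vehicle mice, 8 higher and 9 lower, against 35.7% of all genes.

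At 48 h there were 16 changed members, 13 higher and 3 lower, or 30.2% of those tested beside 30.1% of all genes (16.8% higher and 13.3% lower). By cluster these were 7 of 19 gamma members, all of which rose, 7 of 21 beta members, of which 5 rose and 2 fell, and 2 of 13 alpha members, of which 1 rose and 1 fell. All 5 members let in by DOI mice alone are among the 13 that rose. So is Pcdhgb8, with 1 vehicle mouse at the minimum. Without vehicle mouse 1 the count was 9 and without vehicle mouse 2 it was 10, beside 19.0% and 19.4% of all genes. The medians were -0.42 for alpha, -0.01 for beta, 0.51 for gamma and 0.02 for all genes. The 48 h mice did not overlap vehicle in 16 members, 11 higher and 5 lower, against 38.1% of all genes. Both comparisons use the same vehicle mice. Without the 2 mice with the fewest genes detected, an alternative added after the data were seen, 8 members passed at 24 h (7 higher, 1 lower) and 14 at 48 h (9 higher, 5 lower), beside 18.3% and 27.5% of all genes. Without the 3 mice of differing header number 10 and 15 passed, beside 19.4% and 25.2% of all genes. With the 18S pseudogene share as a covariate, of whose variance the groups hold 75.1%, 0 members and 0 of all genes passed at either time, with 0 members at 24 h and 1 at 48 h at an unadjusted p below 0.05. The share of all genes at that unadjusted p is not given for this fit, so these counts cannot be compared with it. In that fit the estimates of Pcdhb22, Pcdhga4 and Pcdhga9 were negative at both times and those of Pcdhb16 and Pcdhgb1 at 48 h. With total counts as the only scaling the median of all genes moved to 0.14 at 24 h and the members' split to 9 higher and 2 lower, as the higher share of all calls went from 57.0% to 67.3%. At 48 h the same scaling moved the median of all genes to 0.12 and the higher share of all calls from 55.8% to 64.2%, with 13 members higher and 3 lower.

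**Figure D2:**
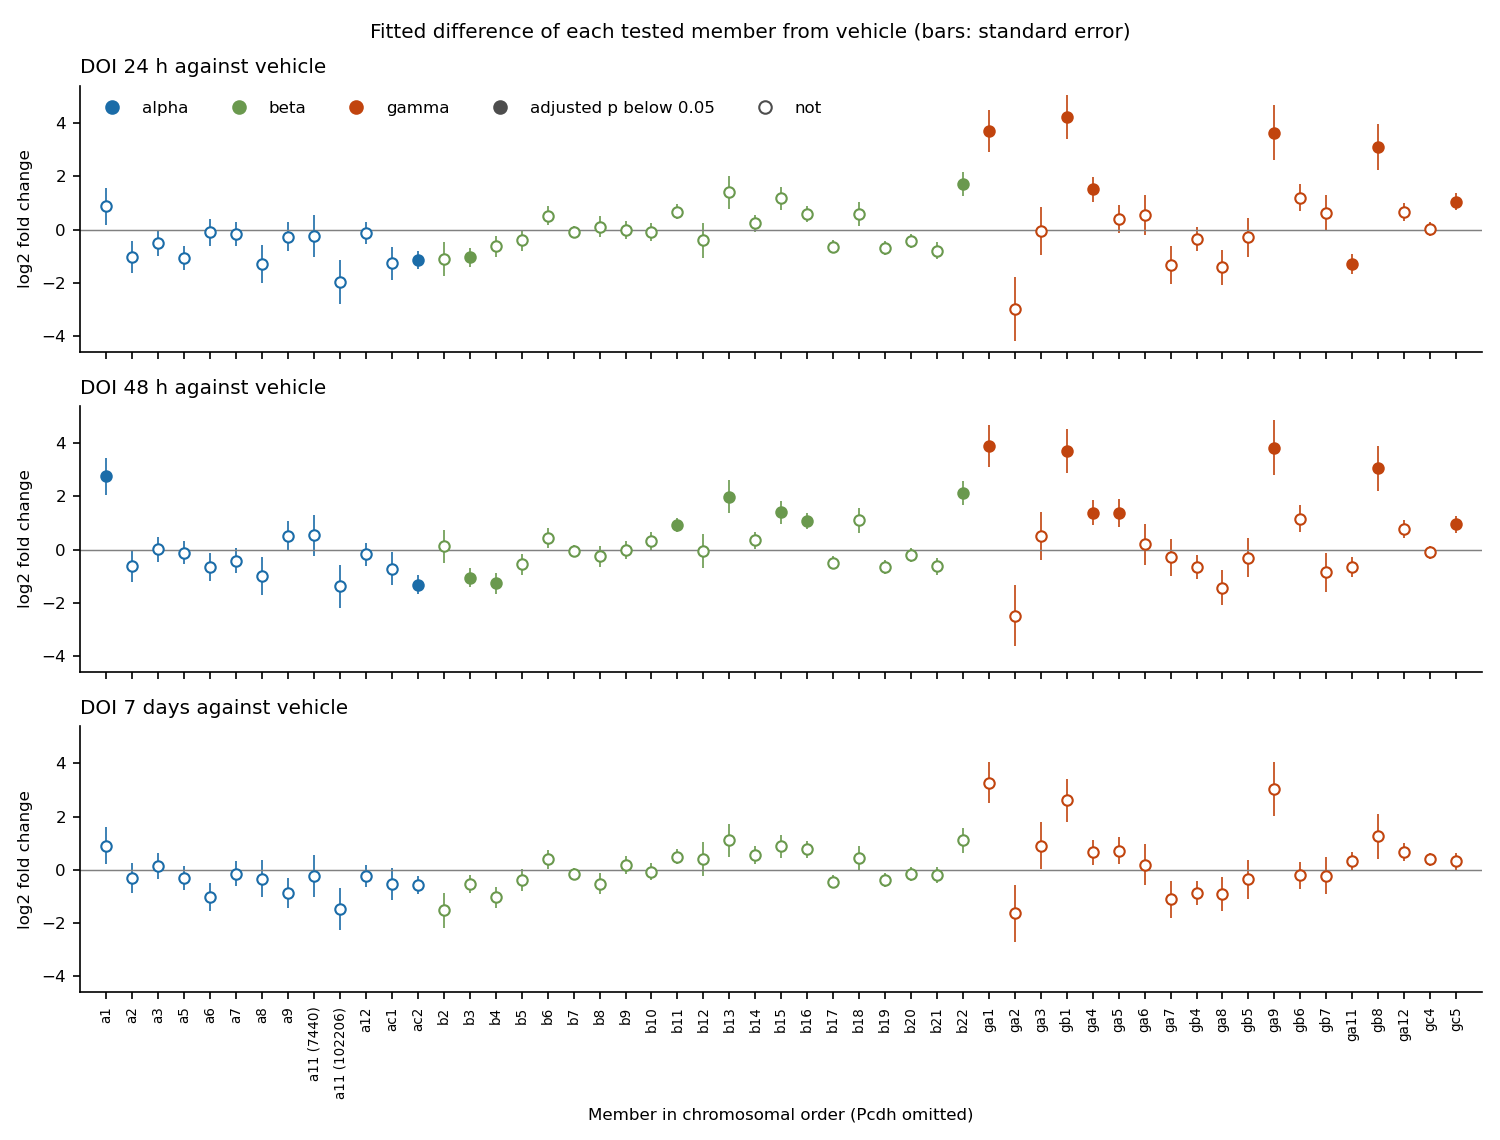
Fitted log2 fold change against vehicle of the 53 tested members in chromosomal order, at 24 h, 48 h and 7 days, with bars of 1 standard error; filled points passed at an adjusted p below 0.05. The tall filled points between 3.05 and 4.23 at 24 h and 48 h are Pcdhga1, Pcdhgb1, Pcdhga9 and Pcdhgb8, and at 7 days 0 points are filled.

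The 4 gamma genes with the largest fitted increases, Pcdhgb1, Pcdhga1, Pcdhga9 and Pcdhgb8, had 0 or 1 vehicle mouse at the filter's minimum, so they could be tested only because DOI mice were higher. In each of them some vehicle mice lay at or below the floor of 3 counts, so the size of the increase is not well measured. Pcdhgb1, a B-type gamma protocadherin, was at 0.944, 0.227, 0.295 and 0.487 CPM in vehicle mice 1 to 4, at 9.44, 14.9, 8.49 and 5.56 CPM at 24 h and at 7.39, 5.69, 4.15 and 9.31 CPM at 48 h. Every mouse at 24 h and 48 h was above every vehicle mouse. At 24 h Pcdhgb1 rose by a log2 fold change of 4.23 (SE 0.82, adjusted p = 0.00329), and at 48 h by 3.71 (SE 0.82, adjusted p = 0.00436).

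Pcdhga1, the first gene of the gamma cluster, was at 0.0944, 0.455, 0.196 and 0.195 CPM in vehicle, 1.98, 1.93, 5.71 and 3.08 CPM at 24 h and 3.19, 3.52, 4.00 and 3.86 CPM at 48 h. Vehicle mice 1, 3 and 4 lay below the floor of 3 counts (0.283, 0.295 and 0.292 CPM) and mouse 2 a little above it (0.341 CPM). Neither DOI group overlapped the vehicle mice. The log2 rise of Pcdhga1 was 3.71 (SE 0.77, adjusted p = 0.00414) at 24 h, then 3.90 (SE 0.78, adjusted p = 0.00264) at 48 h. Part of its exon is shared with an antisense gene, Gm37118, which was at 0 in all mice.

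Pcdhga9 was at 0.189, 0.341, 0.196 and 0.487 CPM in vehicle, 4.26, 4.17, 3.17 and 4.26 CPM at 24 h and 1.45, 3.18, 8.0 and 5.32 CPM at 48 h. Again no DOI mouse of these times overlapped vehicle, and the 24 h mice were close together. Its log2 fold changes were 3.65 (SE 1.03, adjusted p = 0.0174) and 3.83 (SE 1.03, adjusted p = 0.0115), and without vehicle mouse 1 the 24 h adjusted p was 0.0539. Pcdhgb8, which was chosen for mention after its values were seen and which RefSeq lists as a transcribed pseudogene, was at 1.70, 0.227, 0.196 and 0.292 CPM in vehicle, 10.5, 3.87, 3.17 and 4.14 CPM at 24 h and 12.0, 2.34, 3.85 and 2.53 CPM at 48 h. Mouse 1 was the highest in each of these groups. Its log2 fold changes were 3.11 (SE 0.86, adjusted p = 0.0157) and 3.05 (SE 0.86, adjusted p = 0.0141), and the call was lost without vehicle mouse 2 or 24 h mouse 1 (adjusted p = 0.0512 in each) or, at 48 h, without 48 h mouse 1 (adjusted p = 0.0611).

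Pcdhga4 rose less, from 2.24 ± 1.13 CPM (SD, n = 4) in vehicle to 6.44 ± 2.82 at 24 h and 5.91 ± 1.52 at 48 h. In vehicle its mice were at 2.93, 1.02, 3.44 and 1.56 CPM, at 24 h at 3.35, 6.40, 5.83 and 10.2 CPM, and at 48 h at 6.23, 3.68, 6.67 and 7.05 CPM, so that 24 h mouse 1 fell within the vehicle range and the 48 h mice did not. The log2 fold changes were 1.52 (SE 0.47, adjusted p = 0.0278) and 1.39 (SE 0.47, adjusted p = 0.0342). They did not pass without vehicle mouse 2, vehicle mouse 4 or 24 h mouse 4 at 24 h (adjusted p = 0.0780 to 0.106), nor without vehicle mouse 1, 2 or 4 or 48 h mouse 1, 3 or 4 at 48 h (0.0513 to 0.103). Pcdhga5, noted after its values were seen, rose at 48 h from 2.56 ± 1.54 to 6.74 ± 3.23 CPM with an adjusted p of 0.0498, and was lost without any 1 of vehicle mice 1, 2 and 3 and 48 h mice 1, 2 and 3 (adjusted p = 0.0661 to 0.146). The calls of Pcdhga4 at both times and of Pcdhga5 were also lost with counts thinned to the smallest total and with library 2 of each mouse alone.

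Pcdhga11 went the other way. It was at 5.00, 3.64, 4.81 and 4.96 CPM in vehicle and at 1.37, 2.08, 2.41 and 1.66 CPM at 24 h, with no overlap, and at 3.04, 2.85, 1.78 and 3.99 CPM at 48 h, where 1 mouse came within the vehicle range. It fell at 24 h by 1.28 on the log2 scale (SE 0.38, adjusted p = 0.0217), a call lost without vehicle mouse 1 or 4 or 24 h mouse 1 or 4 (adjusted p = 0.0509 to 0.0579). At 48 h the adjusted p was 0.183. The antisense gene Gm26672 lies on exons of Pcdhga10, Pcdhgb7, Pcdhga11 and Pcdhga12 and was itself at 5.95 CPM in vehicle and 8.19 CPM at 24 h (adjusted p = 0.452). Pcdhga12, the last A type, stayed below the threshold at both times: 13.5 ± 2.95 CPM in vehicle, 21.3 ± 10.1 at 24 h (adjusted p = 0.170) and 23.2 ± 6.66 at 48 h (adjusted p = 0.0951).

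**Figure D3:**
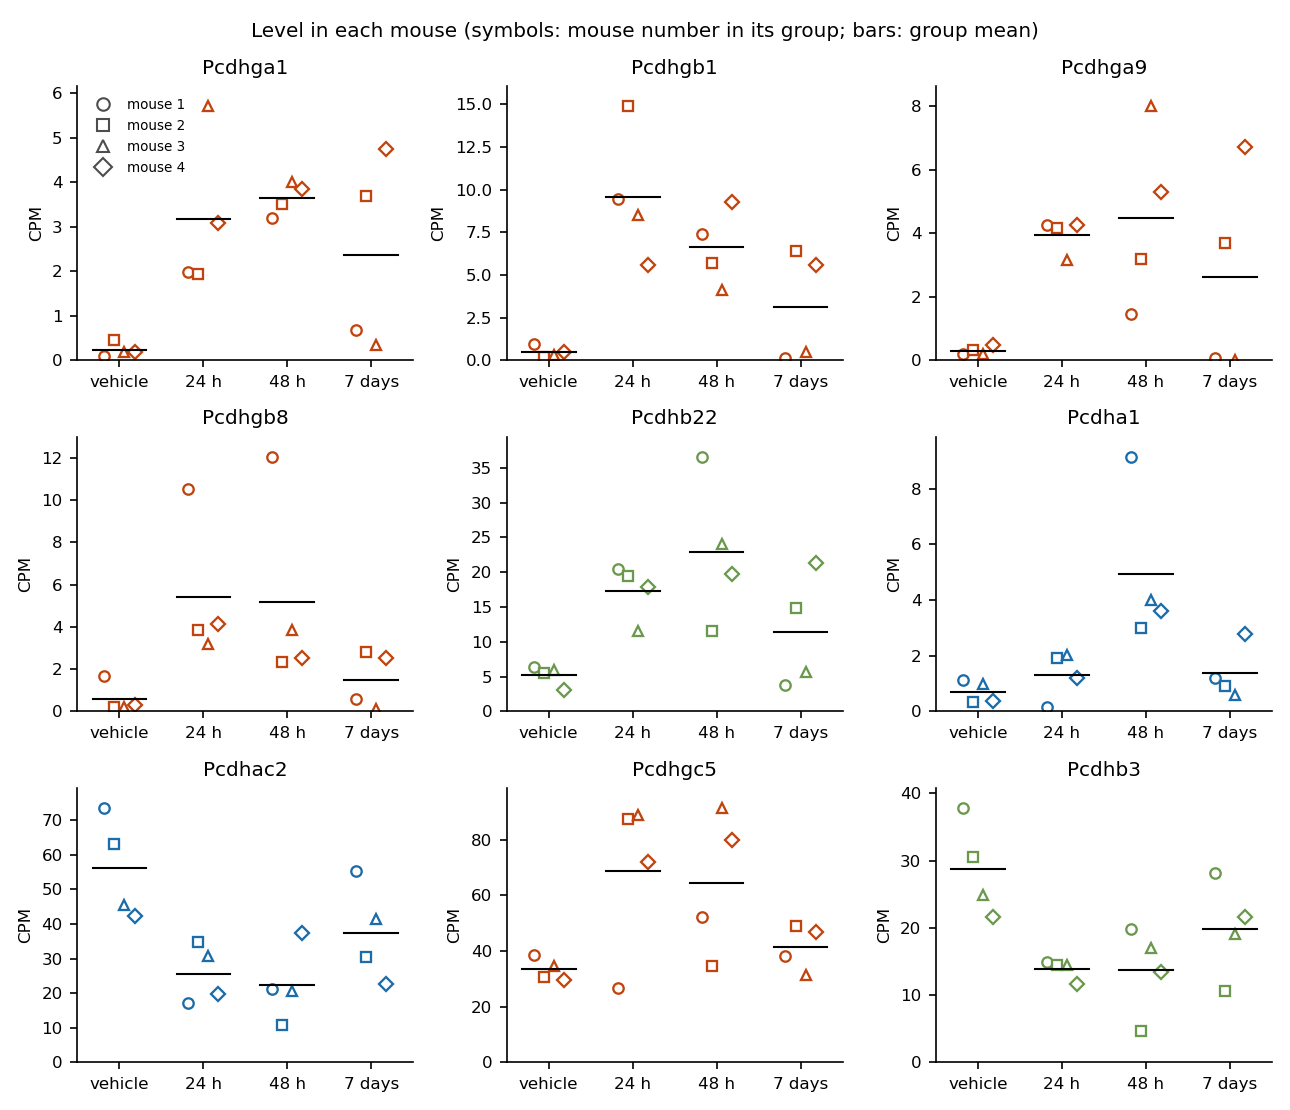
Level in CPM (linear axes from 0) of 9 members in each mouse by group, with symbols for the mouse number within its group, which pairs no mice across groups, and bars for the group mean. Pcdhga1, Pcdhgb1, Pcdhga9, Pcdhgb8 and Pcdhb22 show 24 h and 48 h mice above all vehicle mice, Pcdhac2 and Pcdhb3 show them below, and at 7 days mice 2 and 4 are above mice 1 and 3 in the first 5.

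In the beta cluster, whose members are each a whole gene, Pcdhb22 changed most clearly. It was at 6.42, 5.46, 5.99 and 3.11 CPM in vehicle, 20.4, 19.5, 11.5 and 17.9 CPM at 24 h and 36.5, 11.6, 24.0 and 19.7 CPM at 48 h. All 8 of these DOI mice were above all vehicle mice. On the log2 scale Pcdhb22 rose by 1.72 (SE 0.46, adjusted p = 0.0140) at 24 h, then 2.13 (SE 0.46, adjusted p = 0.00417) at 48 h, and both calls held with any 1 mouse left out (adjusted p up to 0.0467). With the 18S share in the fit both calls were lost and the estimates were -0.23 and -0.015. It shares 455 exon bases with Pcdhb21, its upstream neighbour, which did not pass (adjusted p = 0.0729 and 0.138).

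Pcdhb3 was at 37.8, 30.5, 25.0 and 21.6 CPM in vehicle and at 14.9, 14.4, 14.5 and 11.6 CPM at 24 h, then at 19.8, 4.69, 17.0 and 13.4 CPM at 48 h. The DOI mice were all below the vehicle mice. On the log2 scale it fell by 1.05 (SE 0.35, adjusted p = 0.0361) at 24 h, and at 48 h it fell by 1.06 (SE 0.35, adjusted p = 0.0298). The 24 h call held only without vehicle mouse 4 among the 8 fits with 1 mouse left out (the other 7 gave adjusted p = 0.0516 to 0.110), and the 48 h call was lost without vehicle mouse 1 or 2 or 48 h mouse 2 or 4 (0.0544 to 0.0956). Pcdhb4, next to it, was at 7.84, 6.48, 4.72 and 5.35 CPM in vehicle and 3.48, 2.01, 2.08 and 2.53 CPM at 48 h, again with no overlap. It fell at 48 h by 1.27 (SE 0.39, adjusted p = 0.0223), a call lost without vehicle mouse 1 or 2 or 48 h mouse 2 or 3 (0.0504 to 0.0717), and at 24 h its adjusted p was 0.230.

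Pcdhb16, among the 4 highest beta members per kb over all mice, was at 16.5, 18.6, 18.7 and 26 CPM in vehicle and 54.9, 34.1, 41.8 and 37.4 CPM at 48 h. The 48 h mice were all above the vehicle mice. It rose at 48 h by 1.07 (SE 0.31, adjusted p = 0.0164), was lost without vehicle mouse 1 or 48 h mouse 1 (adjusted p = 0.0513 to 0.0542), and at 24 h, with 29.9 ± 6.76 CPM, had an adjusted p of 0.174. Other beta genes that rose at 48 h, named after their values were seen, were Pcdhb11 (10.7 ± 2.73 to 20.4 ± 5.12 CPM, adjusted p = 0.0191), Pcdhb13 (0.632 ± 0.166 to 2.56 ± 0.493 CPM, adjusted p = 0.0229) and Pcdhb15 (3.71 ± 1.63 to 9.83 ± 2.70 CPM, adjusted p = 0.0224). Each had 48 h mice wholly above vehicle. In Pcdhb13 the filter's minimum was reached in 0 vehicle mice and all 4 mice at 48 h, so it was tested through the group in which it is high. Leaving out 1 mouse ended the call of Pcdhb11 for vehicle mice 2 and 3 and 48 h mouse 1 (0.0578 to 0.0620), of Pcdhb13 for vehicle mice 3 and 4 and 48 h mice 2 and 3 (0.0509 to 0.0609), and of Pcdhb15 for vehicle mice 1 and 3 and 48 h mouse 2 (0.0607 to 0.0675).

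The other beta genes among the 4 highest per kb gave no call. Pcdhb7 was at 22.7 ± 7.01 CPM in vehicle, 21.4 ± 4.02 at 24 h and 21.8 ± 4.23 at 48 h (adjusted p = 0.811 and 0.863). Pcdhb20 was at 31.9 ± 5.46, 23.9 ± 2.65 and 27.9 ± 8.90 CPM (adjusted p = 0.259 and 0.603). Pcdhb17 was at 47.8 ± 6.80 CPM in vehicle, 30.5 ± 6.35 at 24 h and 34.1 ± 6.11 at 48 h, with no overlap at either time, and did not pass (adjusted p = 0.0592 and 0.133). Pcdhb1 gave 2 counts in all, both in 48 h mouse 4.

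Of the 12 alpha genes before the C types 11 were tested, and at 24 h 10 of their estimates were negative (8687 of 17941 over all genes) and 0 passed edgeR's quasi-likelihood test, the lowest adjusted p being 0.0907, while 2 had an unadjusted p below 0.05 (38.4% of all genes). Pcdha12 was at 6.23 ± 1.14 CPM in vehicle, 5.70 ± 2.21 at 24 h and 5.49 ± 2.48 at 48 h. Pcdha7 was at 4.64 ± 0.982, 4.13 ± 1.41 and 3.45 ± 2.56 CPM, Pcdha5 at 3.55 ± 1.17, 1.69 ± 0.739 and 3.26 ± 1.44, and Pcdha9 at 3.05 ± 1.60, 2.52 ± 1.47 and 4.39 ± 2.45. The adjusted p of these 4 genes at the 2 times ranged from 0.0907 to 0.860. At 48 h 1 of the 11 changed (9.09%, beside 30.1% of all genes): Pcdha1, the first gene of the alpha cluster and also noted after its values were seen.

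Pcdha1 was at 1.13, 0.341, 0.982 and 0.389 CPM in vehicle, 0.152, 1.93, 2.03 and 1.18 CPM at 24 h and 9.13, 3.01, 4.00 and 3.59 CPM at 48 h. The 48 h mice were above all mice of the other groups, while the 24 h mice overlapped vehicle. It rose at 48 h by 2.76 (SE 0.69, adjusted p = 0.00815, and up to 0.0304 with 1 mouse left out). The filter's minimum was reached in 0 vehicle mice and all 4 mice at 48 h, so Pcdha1 was tested through the group in which it is high. At 24 h the adjusted p was 0.364.

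The C types did not move as 1 group. Pcdhac2 was at 73.5, 63.2, 45.4 and 42.4 CPM in vehicle, 17.2, 34.7, 30.7 and 19.8 CPM at 24 h and 21.2, 10.7, 20.6 and 37.5 CPM at 48 h. Every DOI mouse of these times was below every vehicle mouse. On the log2 scale Pcdhac2 fell by 1.13 (SE 0.34, adjusted p = 0.0241) at 24 h, and at 48 h it fell by 1.31 (SE 0.34, adjusted p = 0.0101). The 24 h call was lost without vehicle mouse 1 or 2 or 24 h mouse 1 or 4 (adjusted p = 0.0615 to 0.0784), and the 48 h call held with any 1 mouse left out (up to 0.0370).

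Pcdhgc5, the last gamma gene and a C type that appears late in brain development and is found at synapses, was at 38.5, 30.6, 34.8 and 29.8 CPM in vehicle, 26.7, 87.4, 88.7 and 72.1 CPM at 24 h and 52.3, 34.8, 91.3 and 79.9 CPM at 48 h. In each DOI group 3 mice were above all vehicle mice, and 24 h mouse 1 and 48 h mouse 2, which are also 2 of the 3 mice with a differing header number, were not. Its log2 rise was 1.04 (SE 0.32, adjusted p = 0.0263) at 24 h, then 0.95 (SE 0.32, adjusted p = 0.0327) at 48 h. With the mouse number as a replicate block the adjusted p was 0.0525 and 0.0578. Leaving out vehicle mouse 2, 3 or 4 or 24 h mouse 2, 3 or 4 ended the first call (0.0532 to 0.0733), and leaving out any vehicle mouse or 48 h mouse 3 or 4 the second (0.0546 to 0.119).

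Set against each other within a mouse, a measure chosen after both were seen, Pcdhgc5 was below Pcdhac2 in every vehicle mouse and above it in every 24 h and 48 h mouse. The ratio of their CPM was 0.484 to 0.766 in vehicle, 1.55 to 3.65 at 24 h and 2.13 to 4.43 at 48 h. These are ratios of counts over unshared exons of different length (4606 bases for Pcdhgc5 and 3028 for Pcdhac2), so only the change of the ratio between groups can be read. Mice 24 h 1 and 48 h 2, in which Pcdhgc5 was not high, had Pcdhac2 at 17.2 and 10.7 CPM.

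**Figure D4:**
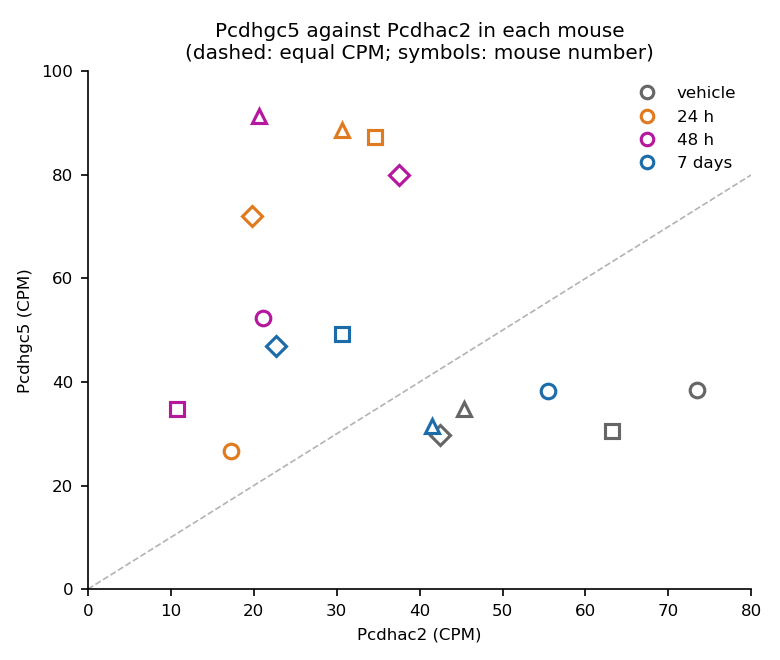
Pcdhgc5 (CPM) against Pcdhac2 (CPM) in each of the 16 mice, coloured by group, with a dashed line where both have the same CPM. Vehicle mice and 7 days mice 1 and 3 lie below the line, and all 24 h and 48 h mice and 7 days mice 2 and 4 lie above it.

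The other C types gave no call. Pcdhgc4 was at 14.8 ± 1.48 CPM in vehicle, 15.0 ± 2.85 at 24 h and 13.8 ± 3.50 at 48 h (adjusted p = 0.958 and 0.787). Pcdhac1 was at 10.0, 5.91, 5.89 and 5.94 CPM in vehicle, 0.609, 3.13, 5.58 and 2.13 CPM at 24 h and 8.26, 0.837, 3.26 and 4.52 CPM at 48 h (adjusted p = 0.143 and 0.393). Its 24 h mice lay below vehicle and its 48 h mice overlapped. Pcdhgc3, which acts on dendrite branching and was too low to test, was at 0.567, 0.227, 1.67 and 0.681 CPM in vehicle, at 0 in all 24 h mice, at 0.167 CPM in 48 h mouse 2 alone and at 0.254, 0.112, 1.52 and 0 CPM at 7 days. Against 3 counts over the 24 h group as the floor (0.101 CPM), its level was at least 7.76-fold lower at 24 h than in vehicle, and at least 4.86-fold lower without vehicle mouse 3, which holds 17 of the 32 vehicle counts, for these libraries and with no test.

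Summed over a whole cluster, the mean of alpha was lower and that of gamma higher at 24 h and 48 h. The mean of beta differed from vehicle by less than the SD of the vehicle mice, and the total of all members overlapped between the groups. Per mouse the alpha sum was 123, 92.3, 83.8 and 78.6 CPM in vehicle, 28.2, 68.2, 64.8 and 46.9 CPM at 24 h and 71.4, 33.0, 48.9 and 81.2 CPM at 48 h. The 24 h mice were all below vehicle, and 48 h mouse 4 overlapped it. The gamma sum was 106, 98.4, 108 and 96.1 CPM in vehicle, 127, 175, 167 and 171 CPM at 24 h and 161, 125, 187 and 157 CPM at 48 h, with no overlap at either time.

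As a share of all member CPM, the alpha cluster went from 18.9% ± 2.00 (SD, n = 4) in vehicle to 10.5% ± 3.07 at 24 h and 10.9% ± 3.14 at 48 h, and the gamma cluster from 20.7% ± 2.45 to 32.8% ± 2.67 and 29.8% ± 2.57. The beta share was 60.4% ± 2.64, 56.7% ± 5.10 and 59.4% ± 2.29. All members together summed to 497 ± 58.8 CPM in vehicle, 486 ± 39.1 at 24 h and 532 ± 89.5 at 48 h. Much of the alpha and gamma shift lies in Pcdhac2 and Pcdhgc5: the alpha genes before the C types summed to 31.4 ± 6.74 CPM in vehicle, 23.6 ± 9.08 at 24 h and 31.9 ± 10.2 at 48 h, which overlapped. The gamma A and B types, without the C types, summed to 53.0 ± 1.14, 76.3 ± 7.94 and 79.1 ± 13.1 CPM, with no DOI mouse of these times below 66.9 and no vehicle mouse above 54.6. Sums over members are given as a description, with no test.

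**Figure D5:**
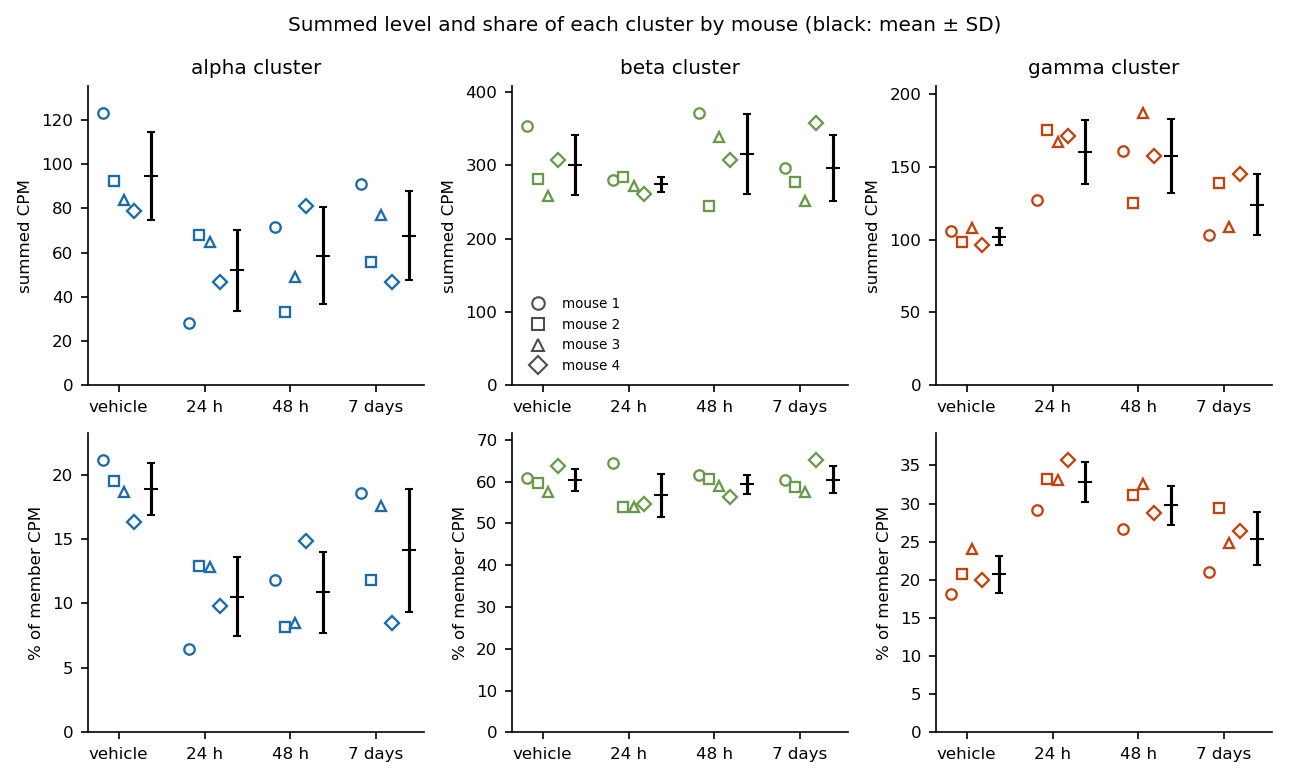
Summed CPM of each cluster (top) and its share of all member CPM in percent (bottom) for each mouse by group, with the mean and SD in black; axes start at 0. The gamma share is above all vehicle mice (up to 24.0%) in each mouse at 24 h and 48 h (from 26.7%), and the alpha share is below them (16.3% and higher).

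At 7 days 0 members passed, beside 0% of all genes, by edgeR's quasi-likelihood test. At an unadjusted p below 0.05 there were 7 members of 53, or 13.2%, beside 16.8% of all genes. DESeq2 called 3 members (Pcdhga1, Pcdhgb1 and Pcdhga9, all higher), beside 4.44% of all genes, and limma voom with quality weights 0. In these 3 genes 0 vehicle mice reached the filter's minimum. The 7 days mice fell wholly below vehicle in 3 members (Pcdhb2, Pcdhb4 and Pcdhgb4, the last named after its values were seen) and wholly above in 0, against 5.85% of all genes without overlap.

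In Pcdhgb1, Pcdhga1 and Pcdhga9 mice 2 and 4 were high and mice 1 and 3 low. Pcdhgb1 was at 0.169, 6.39, 0.467 and 5.60 CPM in 7 days mice 1 to 4, Pcdhga1 at 0.677, 3.70, 0.350 and 4.76 CPM and Pcdhga9 at 0.0847, 3.70, 0 and 6.72 CPM. In all 3 genes mice 1 and 3 lay in or near the vehicle range and mice 2 and 4 within the range of the 24 h and 48 h mice. The fitted log2 fold changes were 2.62 (SE 0.81, adjusted p = 0.127), 3.27 (SE 0.77, adjusted p = 0.0960) and 3.03 (SE 1.02, adjusted p = 0.152). Without 7 days mouse 1 the adjusted p was 0.0135, 0.0107 and 0.0281, and without mouse 3 it was 0.0290, 0.00982 and 0.0281.

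Some other members parted the same mice, and Pcdha1 did not (1.19, 0.896, 0.584 and 2.80 CPM). Pcdhb22 was at 3.73, 14.8, 5.60 and 21.3 CPM and Pcdhgb8 at 0.593, 2.80, 0.117 and 2.52 CPM. Pcdhac2 was at 55.5, 30.6, 41.4 and 22.7 CPM, with mice 2 and 4 the lower, and the ratio of Pcdhgc5 to Pcdhac2 ran from 0.690 to 2.07. In mice 2 and 4 the 18S pseudogene share and the mitochondrial share were also above those of mice 1 and 3. In the fit that includes the 18S share Pcdhga9 had a log2 fold change of -0.75 at 7 days, while the estimates of Pcdhga1 and Pcdhgb1 did not turn negative. The part of the mitochondrial share was not tested.

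The 3 members with the smallest p among lower estimates at 7 days did not pass. Pcdhb4 was at 3.05, 1.79, 2.57 and 4.48 CPM, below all vehicle mice, with a log2 fold change of -1.04 (SE 0.38, adjusted p = 0.188). Pcdhb2 was at 2.46, 2.58, 3.27 and 1.26 CPM against 7.93, 10.3, 3.34 and 6.13 CPM in vehicle, with -1.52 (SE 0.65, adjusted p = 0.246). Pcdha6 was at 0.932, 1.12, 1.28 and 1.12 CPM against 3.87, 2.39, 1.87 and 0.973 CPM, with -1.02 (SE 0.52, adjusted p = 0.331), and overlapped.

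Among the DOI groups themselves 0 members passed by edgeR's quasi-likelihood test: 48 h against 24 h (beside 0% of all genes), 7 days against 48 h (0%) and 7 days against 24 h (0.00557%). At an unadjusted p below 0.05 there were 1, 8 and 5 of the 53 members, beside 1.88%, 16.5% and 14.2% of all genes. DESeq2 and limma voom gave 0 members in the first 2 comparisons and 1 in the third, where 2.19% and 2.83% of all genes passed. Tested over all 4 groups at once, 7 members differed, or 13.2%, beside 18.8% of all genes: Pcdhgb1 (adjusted p = 0.0100), Pcdhga1 (0.0118), Pcdhb22 (0.0184), Pcdhga11 (0.0232), Pcdha1 (0.0236), Pcdhac2 (0.0298) and Pcdhgb8 (0.0324). Of these, Pcdhgb1, Pcdhga1 and Pcdha1 had 0 vehicle mice at the filter's minimum and Pcdhgb8 had 1, so they were tested only because DOI mice were higher. With 1 mouse left out the count lay between 3 and 11.

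Between and on the 3 clusters the annotation has 28 further features, of which 13 were high enough to test. At 24 h 3 of the 13 rose and 0 fell, and at 48 h 2 rose and 0 fell (23.1% and 15.4%, beside 24.2% and 30.1% of all genes). In 6 of the 13, these 3 included, 0 vehicle mice reached the filter's minimum, so they could be tested only because DOI mice were higher. Gm18529, between Pcdhb3 and Pcdhb4 (37305535 to 37306791), went from 0.414 ± 0.344 CPM in vehicle to 4.25 ± 1.39 at 24 h (adjusted p = 0.0292) and 4.73 ± 1.93 at 48 h (adjusted p = 0.0201), while Pcdhb3 fell at both times and Pcdhb4 at 48 h. Gm19035, between the starts of Pcdha12 and Pcdhac1 (37079994 to 37082457), went from 0.440 ± 0.471 to 3.40 ± 2.07 and 3.78 ± 2.22 CPM (adjusted p = 0.0239 and 0.0159). Gm29994, noted after its values were seen, rose at 24 h from a mean of 0.698 to 4.20 CPM (adjusted p = 0.0487), and its 24 h mice ran from 0.914 to 10.2 CPM.

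Beyond the clusters, 29 of the 43 genes within 500 kb could be tested, and 1 rose and 3 fell at 24 h and 1 rose and 6 fell at 48 h (13.8% and 24.1%, beside 24.2% and 30.1% of all genes). Gnpda1, a glucosamine-phosphate enzyme, fell by 0.99 and 1.00 on the log2 scale (adjusted p = 0.0146 and 0.0111). Gm23205, a short feature, fell by 2.15 and 1.95 (adjusted p = 0.0179 and 0.0228), and Ik, a splicing factor, fell at 48 h by 0.50 (adjusted p = 0.0180). Their medians were -0.04 and -0.20.

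Of the genes known to control which protocadherin promoter is used, the CTCF and cohesin list had 2 of 14 lower and 0 higher at 24 h, and 2 lower and 1 higher at 48 h (14.3% and 21.4%, below the 24.2% and 30.1% of all genes, with medians -0.10 and 0.05). Ctcf was at 72.0 ± 6.67 CPM in vehicle, 34.8 ± 4.33 at 24 h and 35 ± 4.33 at 48 h, and fell by 1.05 and 1.04 on the log2 scale (adjusted p = 0.0100 and 0.00829). Esco1, which acetylates cohesin, went from 141 ± 19.9 to 53.6 ± 13.2 and 54.6 ± 25.3 CPM (adjusted p = 0.00400 and 0.00341). Of 17 regulators of chromatin and DNA methylation, 3 rose and 1 fell at 24 h, and 4 rose and 2 fell at 48 h (23.5% and 35.3%, near the share of all genes, with medians 0.15 and 0.40). The de novo methylase Dnmt3a rose by 0.48 and 0.62 on the log2 scale (adjusted p = 0.0316 and 0.00790) and the histone methylase Ehmt1 by 0.60 and 0.76 (adjusted p = 0.0309 and 0.00876).

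Downstream, protocadherins are cut at the surface by Adam10 and then by the gamma-secretase complex, and their inner part binds kinases such as Ptk2b. Of 8 such enzymes 4 rose and 1 fell at 24 h and 3 rose and 1 fell at 48 h (62.5% and 50.0%, beside 24.2% and 30.1% of all genes). The gamma-secretase subunit Ncstn went from 8.41 ± 1.59 to 45.1 ± 12.0 and 43.1 ± 4.91 CPM (adjusted p = 0.00337 and 0.00276), Psen2 from 16.6 ± 6.01 to 41.9 ± 8.52 and 33.2 ± 6.87 (0.00552 and 0.0178) and Adam10 from 68.1 ± 11.0 to 113 ± 10.4 and 112 ± 16.6 (0.00971 and 0.00814). Of 18 intracellular partners 3 rose and 5 fell at 24 h, and 4 rose and 6 fell at 48 h (44.4% and 55.6%). Ptk2b fell from 291 ± 45.6 to 80.6 ± 6.33 and 77.6 ± 14.6 CPM (adjusted p = 0.00308 and 0.00198), Pdcd10 by 0.72 and 0.66 on the log2 scale (0.0113 and 0.0140) and Pik3r1 by 0.68 and 0.87 (0.0249 and 0.00645).

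Of the protocadherins outside the clusters, 1 of 11 tested fell at 24 h, and 1 rose and 1 fell at 48 h (9.09% and 18.2%, beside 24.2% and 30.1% of all genes). Pcdh20 fell from 37.1 ± 6.19 to 19.0 ± 5.14 and 19.4 ± 4.58 CPM (adjusted p = 0.0148 and 0.0140), and Pcdh15 rose at 48 h from 77.8 ± 20.0 to 120 ± 17.8 CPM (adjusted p = 0.0387). Of 24 other cadherin relatives tested, 4 rose and 2 fell at 24 h and 5 rose and 2 fell at 48 h (25.0% and 29.2%, near the share of all genes). Celsr3, an axon-guidance cadherin, rose from 28.8 ± 5.10 to 130 ± 34.3 and 116 ± 24.1 CPM (adjusted p = 0.00153 and 0.00155), Clstn1 from 106 ± 20.0 to 246 ± 59.9 and 263 ± 62.6 (0.00457 and 0.00251), and Cdh12 fell from 118 ± 18.3 to 47.3 ± 3.52 and 56.7 ± 11.3 (0.00366 and 0.00785). In all of these lists 0 genes passed at 7 days by edgeR's quasi-likelihood test, with 0 to 6 genes of a list at an unadjusted p below 0.05. The 6 were among the 24 other cadherin relatives, and 16.8% of all genes were below that p.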

How the data were processed

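RNA of 16 mice (32 libraries) was used, and the other 52 samples of the series were not analysed here. Deposited were raw counts of reads, made per the file headers by featureCounts 2.0.0 on exons grouped by gene ID in a GRCm38 annotation, with no option set for strand, multi-mapping or overlap. The submitters' processing notes list Trim Galore 0.6.5 with no role, and the RNA aligner is not given in the sources used here. Symbols were found for 55141 of 55401 IDs. The 2 libraries of a mouse were summed, low genes removed by filterByExpr, and the rest scaled by TMM. They were fitted with edgeR 4.0.16 (R 4.3.3) by quasi-likelihood over the 4 groups, with Benjamini-Hochberg adjustment. A prior count of 2 was used only in the log levels behind the principal components and the correlation of same-numbered mice. Each standard error is the size of the log2 fold change over the root of F. The p-values measure the spread between the mice sampled. The fit was tested on simulated data.

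The members, gene lists and tests were chosen with earlier results of these data known. Members given by mouse were the C types, the 4 highest per kb among the other members of each cluster (at least 300 unshared bases) and the 3 smallest p in each direction at each time, and from other lists the 2 smallest p at 24 h and at 48 h, of which 1 gene is not reported here. Alternatives were DESeq2 1.42.0, limma 3.58.1 (voom with quality weights), other scalings, filters, single libraries, thinned counts, an 18S covariate, a replicate block and each mouse left out. RefSeq promoter sequences were found for 0 of 58 members, and no sequence is printed.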

Additional observations from a re-analysis of the deposited data

Results flagged for a closer look

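Over 32 measures (cluster sums, cluster shares and the members given by mouse) in 4 groups each, 128 groups of 4 mice were examined for a mouse whose gap to the nearest other passed Dixon's 95% critical share of the group's range. Chance gives about 1 in 20, or 6.4 groups, and 11 were found. In the 24 h group mouse 1 stood apart with a gamma sum of 127 CPM (nearest 167) and a beta share of 64.3% of member CPM (nearest 54.5%). Also at 24 h, mouse 4 had Pcdhb3 at 11.6 CPM (nearest 14.4) and Pcdhb7 at 27.3 CPM (nearest 20.3), and mouse 3 had Pcdhga9 at 3.17 CPM (nearest 4.17). In the vehicle group mouse 1 had Pcdhac1 at 10.0 CPM (nearest 5.94) and Pcdhb7 at 33.1 CPM (nearest 20.0), and mouse 2 had Pcdhga11 at 3.64 CPM (nearest 4.81). At 48 h mouse 4 had Pcdha6 at 2.13 CPM (nearest 1.30), and mouse 2 alone had Pcdhgc3 above 0, at 0.167 CPM, which is under the floor of 3 counts. At 7 days mouse 3 had Pcdhgc3 at 1.52 CPM (nearest 0.254).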

How the results depend on the processing

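With the 18S pseudogene share as a covariate 0 members passed at 24 h, at 48 h or in the test among 4 groups, and the fitted log2 fold change turned negative for Pcdhb16 at 48 h (-0.28), Pcdhb22 at 24 h (-0.23) and 48 h (-0.015), Pcdhgb1 at 48 h (-0.20), Pcdhga4 at 24 h (-0.20) and 48 h (-0.38), and Pcdhga9 at 24 h (-1.29), 48 h (-1.52) and 7 days (-0.75). The groups hold 75.1% of that covariate's variance, so it and the groups can hardly be told apart. At 24 h limma voom called 19 members, a fit of only the groups compared 17 and DESeq2 14, beside 10, where 40.3%, 36.7% and 30.2% of all genes passed, beside 24.2%. At 7 days DESeq2 and no filter on low counts gave 3 each, beside 0 (4.44% and 2.62% of all genes). For 7 days against 24 h, DESeq2, limma voom and leaving out the 3 mice of differing header number gave 1 each (2.19%, 2.83% and 0.690% of all genes). Among 4 groups DESeq2 called 16, limma voom 20, no filter 13, and leaving out the 2 mice with few genes detected 4, beside 7, where 28.6%, 39.7%, 13.7% and 13.8% of all genes passed, beside 18.8%. With the mouse number as a replicate block the counts were 11 at 24 h, 14 at 48 h, 0 at 7 days and 4 among 4 groups, beside 20.4%, 26%, 0% and 13.4% of all genes. The block ended the calls of Pcdhga4 (adjusted p = 0.0591 and 0.0598) and Pcdhgc5, but the numbers do not pair the mice: same-numbered mice correlated by -0.04 on average (-0.28 to 0.24, 24 pairs). Leaving out each mouse gave between 5 and 10 members at 24 h, between 9 and 13 at 48 h and between 0 and 4 at 7 days, where 13.9% to 21.2%, 19.0% to 26.4% and 0% to 7.26% of all genes passed. It gave 0 or 1 for 7 days against 24 h (up to 1.67% of all genes), 0 throughout for the other pairs of DOI groups (up to 2.37%), and between 3 and 11 among 4 groups, beside 8.0% to 24.3% of all genes (4 without vehicle mouse 1 or 24 h mouse 4, 3 without vehicle mouse 2 or 4, and 11 without 7 days mouse 1 or 4). The 4 members at 7 days came without 7 days mouse 1, and 3 without mouse 3 (7.26% and 6.28% of all genes). In every such fit 3 of the 10 calls at 24 h (Pcdhb22, Pcdhga1 and Pcdhgb1) and 6 of the 16 at 48 h (these, Pcdha1, Pcdhac2 and Pcdhga9) were kept, of which Pcdhga1, Pcdhgb1, Pcdha1 and Pcdhga9 were tested only because DOI mice reached the filter's minimum. Total counts as the scaling turned the log2 ratio of the beta sum at 7 days from -0.02 to 0.04 and of the C types at 48 h from -0.09 to 0.01, while alpha stayed lower and gamma higher. The cause of these differences was not tested. Members below the floor of 3 counts in most mice, such as Pcdhgc3, could not be measured well here, and the part of depth was not tested.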
